A study of Mus musculus with 8 samples.

Results

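The nuclear respiratory chain genes were taken as every gene symbol beginning with Nduf, Uqcr, Atp5, Cox4, Cox5, Cox6, Cox7 or Cox8, together with Sdha, Sdhb, Sdhc and Sdhd, in 3 deposited tables of gene expression from the mouse hair follicle. Loci that join several genes and symbols ending in -ps were left out, and the row with the highest mean was kept for each symbol. This gave 91 of the 35770 symbols in the 3 tables. Among them are 38 genes named for complex I, 4 assembly factors of complex I (Ndufaf1 to Ndufaf4), 4 subunits of complex II, 8 of complex III, 18 of complex IV and 15 of complex V. The symbols also took in Atp5s and Atp5sl, which are not subunits of the classical ATP synthase, and Cox4nb and Atp5l2, which are not chain genes (Cox4nb is now named Emc8, and RefSeq lists Atp5l2 as a pseudogene).

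The study removed Bmpr1a, a receptor through which bone morphogenetic proteins signal, from cells of the hair follicle and sequenced their RNA in 8 libraries from mice of mixed strain. Hair follicle stem cells (HFSCs) of the bulge came from K15-CrePGR;Bmpr1a mice at postnatal day 68, with 1 cKO and 1 Het library. Transit-amplifying cells (TACs), the dividing progeny that build the hair shaft, came from Shh-CreER;Bmpr1a mice at day 68, with 1 cKO and 1 Het library, and from hair bulbs of K15-CrePGR;Bmpr1a mice at day 80, with the KO samples 64 and 84 and the WT samples 52 and 57. K15-CrePGR is an inducible Cre under the Krt15 promoter, which is active in bulge stem cells, and Shh-CreER is an inducible Cre expressed from the Shh locus, which is active in part of the hair bulb. The labels give neither the induction nor whether samples are single animals, and the Het libraries are labelled heterozygous while the K15-CrePGR TAC controls are labelled WT.

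Levels are in FPKM, a unit that corrects fragment counts for transcript length and depth, and each deleted genotype was set against the control of its own table. Bmpr1a stood at 39.3 FPKM in cKO and 31.8 FPKM in Het HFSCs, 40.4 FPKM in cKO and 46.0 FPKM in Het TACs of the Shh-CreER table, and 39.9 and 38.0 FPKM in KO against 42.2 and 37.1 FPKM in WT TACs of the K15-CrePGR table. Such gene-wide levels cannot show the loss of an exon and leave the genotype labels unchecked. The labelled cell types were matched by their markers, since all 10 bulge markers were at least 2-fold higher and all 10 hair matrix markers at least 2-fold lower in Het HFSCs than in Het Shh-CreER TACs. Sex-linked transcripts differed within tables: Xist stood at 3.98 FPKM in cKO and 68.9 FPKM in Het HFSCs, and at 209.7 and 226 FPKM in KO 64 and KO 84 against 3.26 FPKM in WT 52 and 175 FPKM in WT 57. Of the chain genes, 3 lie on the X chromosome (Ndufa1, Ndufb11 and Cox7b).

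The respiratory chain sits in the inner mitochondrial membrane, where complexes I and II pass electrons from NADH and succinate to ubiquinone, complex III passes them on to cytochrome c, and complex IV reduces oxygen. Complexes I, III and IV pump protons as they do so, and complex V, the ATP synthase, uses the proton gradient to make ATP. Most subunits are encoded in the nucleus and imported, while a small core is encoded by mitochondrial DNA. Bulge stem cells are known as largely quiescent and glycolytic, and TACs as rapidly dividing.

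Nuclear chain genes are known to carry binding sites for NRF1, GABP (an ETS factor), YY1 and the oestrogen-related receptors (ERR), so the promoters of 6 members whose values recur in the results are shown. Sequences are from RefSeq on GRCm38.p6 and run 5′ to 3′ on the strand of the gene, from 250 bases before to 50 bases after the start. Capitals mark the letters GCGCANGCGC (NRF1), CCGGAAG (GABP), AAGATGG (YY1) or AAGGTCA (ERR), searched on both strands. No 2 different motifs overlap in the windows shown. Ndufb7 (chr8:83566508-83566807, plus strand) had among the most negative differences of complex I in both TAC tables. Ndufaf4 (chr4:24897833-24898132, plus strand), Sdhb (chr4:140961021-140961320, plus strand), Atp5e (chr2:174464052-174464351, minus strand) and Atp5g3 (chr2:73911277-73911576, minus strand) stood among the larger differences of their groups in HFSCs, and Cox7a1 (chr7:30183921-30184220, plus strand) is a muscle isoform shown for contrast.
Ndufb7: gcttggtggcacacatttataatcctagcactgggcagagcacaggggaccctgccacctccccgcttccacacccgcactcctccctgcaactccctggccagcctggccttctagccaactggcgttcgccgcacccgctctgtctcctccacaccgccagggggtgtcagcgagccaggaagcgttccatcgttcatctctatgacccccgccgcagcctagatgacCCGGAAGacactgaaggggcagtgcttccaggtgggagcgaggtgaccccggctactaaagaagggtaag
Ndufaf4: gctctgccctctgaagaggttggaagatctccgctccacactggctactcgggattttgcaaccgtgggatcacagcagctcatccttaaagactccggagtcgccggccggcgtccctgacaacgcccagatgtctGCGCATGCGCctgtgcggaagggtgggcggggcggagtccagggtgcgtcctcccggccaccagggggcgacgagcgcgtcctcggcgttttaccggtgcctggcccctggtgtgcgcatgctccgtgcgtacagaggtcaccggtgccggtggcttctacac
Sdhb: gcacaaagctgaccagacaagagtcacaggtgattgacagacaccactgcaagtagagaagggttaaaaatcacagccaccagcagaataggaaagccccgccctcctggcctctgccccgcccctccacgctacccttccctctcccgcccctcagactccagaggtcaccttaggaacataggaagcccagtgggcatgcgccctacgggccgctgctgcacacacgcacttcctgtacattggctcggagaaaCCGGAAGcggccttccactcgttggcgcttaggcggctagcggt
Atp5e: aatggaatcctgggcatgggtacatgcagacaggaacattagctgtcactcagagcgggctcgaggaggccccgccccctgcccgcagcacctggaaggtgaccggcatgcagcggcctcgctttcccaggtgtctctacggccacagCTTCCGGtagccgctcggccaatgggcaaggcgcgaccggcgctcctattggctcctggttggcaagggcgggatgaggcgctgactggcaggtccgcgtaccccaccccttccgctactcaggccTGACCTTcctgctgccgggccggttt
Atp5g3: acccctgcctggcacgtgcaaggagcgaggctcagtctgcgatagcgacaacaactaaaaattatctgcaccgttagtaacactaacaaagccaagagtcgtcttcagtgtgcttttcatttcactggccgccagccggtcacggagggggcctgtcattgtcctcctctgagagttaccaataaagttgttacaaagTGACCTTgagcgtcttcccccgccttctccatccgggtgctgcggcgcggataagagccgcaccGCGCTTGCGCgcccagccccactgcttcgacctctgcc
Cox7a1: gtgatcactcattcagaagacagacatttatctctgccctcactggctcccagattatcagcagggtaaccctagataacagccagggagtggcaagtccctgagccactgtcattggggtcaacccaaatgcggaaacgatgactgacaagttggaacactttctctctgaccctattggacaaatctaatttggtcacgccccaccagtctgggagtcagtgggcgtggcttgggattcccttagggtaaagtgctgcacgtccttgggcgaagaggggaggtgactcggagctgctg
GABP letters began 20 bases before the start in Ndufb7 and 102 bases before it in Atp5e, and NRF1 letters began 113 bases before it in Ndufaf4. In Atp5g3, ERR letters began 52 bases before the start and NRF1 letters lay after it. None of the 4 motifs was found in the Cox7a1 window. A RefSeq window was found for 74 of the 91 symbols. NRF1 letters were in 17 of them (23.0%) against 4.78% of all 27025 promoter windows, GABP letters in 16 (21.6% against 9.12%), YY1 letters in 11 (14.9% against 6.48%) and ERR letters in 8 (10.8% against 4.66%). The chain gene windows were also richer in G and C (median 57.8% against 52.7%) and in CpG (median 19.5 against 7 per window), and the motif shares were not adjusted for that. A match is a description of the letters and not of binding.

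Chain genes were among the most abundant transcripts in every library. The median percentile of the 79 generally expressed members (without tissue-restricted isoforms, Atp5s, Atp5sl, Cox4nb and Atp5l2) among the genes common to the tables lay between 96.6 and 98.4. Summed over members, the level was 15817 FPKM in cKO against 11829 FPKM in Het HFSCs, and 16596 FPKM in cKO against 18975 FPKM in Het Shh-CreER TACs. It was 14259 FPKM in KO 64 and 18059 FPKM in KO 84, against 21310 FPKM in WT 52 and 21609 FPKM in WT 57. By this sum the deleted genotype was above its control in HFSCs and below it in both TAC tables. The FPKM total of named genes also differed: 648690 in cKO and 620583 in Het HFSCs, 474079 in cKO and 511878 in Het Shh-CreER TACs. As a share of that total, members made up 2.438% in cKO and 1.906% in Het HFSCs, and 3.501% and 3.707% in Shh-CreER TACs. In KO 64 and KO 84 the share was 1.801% and 1.869%, against 2.138% and 2.219% in WT 52 and WT 57. The direction was thus the same by share, and the Shh-CreER libraries lay close together. In bulk RNA, fewer cells of a type and less RNA per cell cannot be told apart.

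**Figure D1:**
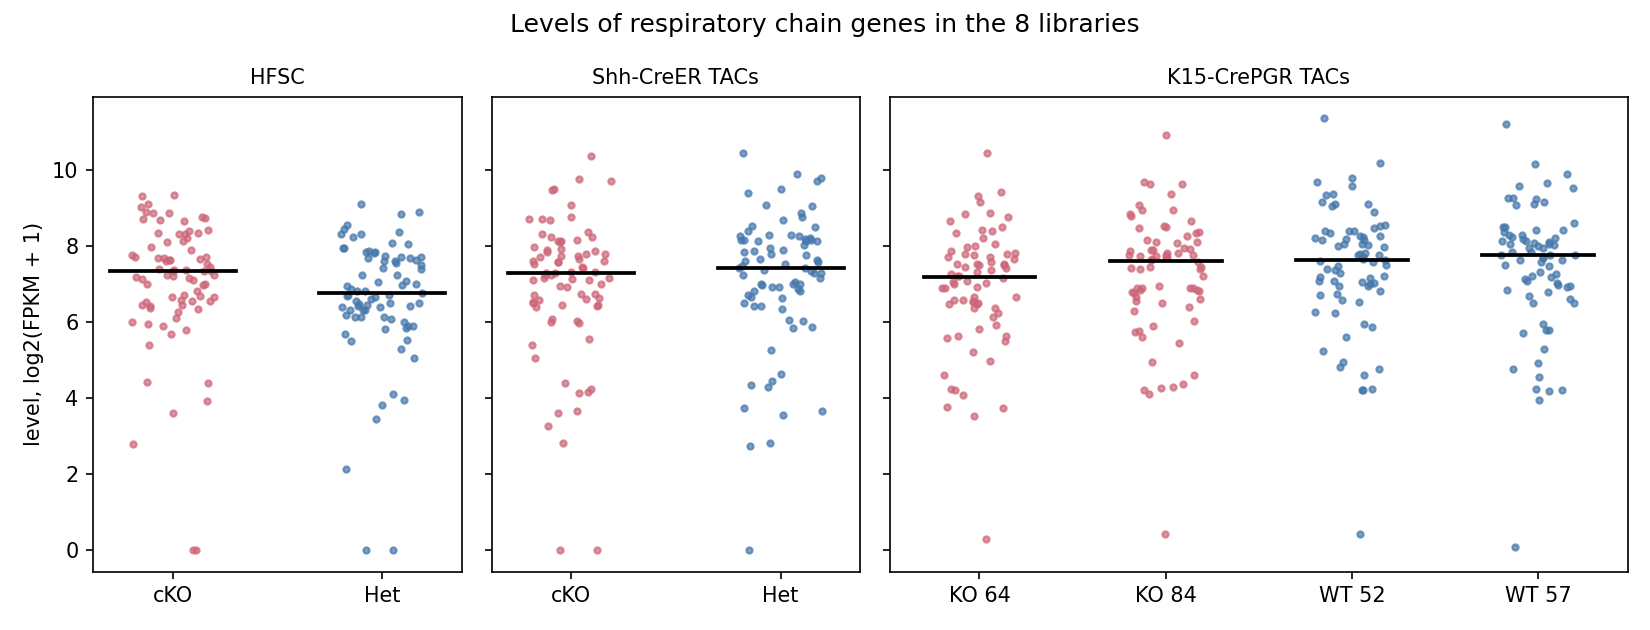
Levels of the generally expressed chain genes, as log2(FPKM + 1), in each of the 8 libraries, with cKO and KO libraries in red and their Het and WT controls in blue; each point is 1 gene and each black line a median. The median level was 161 FPKM in cKO against 108 FPKM in Het HFSCs, 156 FPKM in cKO against 172 FPKM in Het Shh-CreER TACs, and 145 and 195 FPKM in KO 64 and KO 84 against 200.2 and 218 FPKM in WT 52 and WT 57.

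Not every member had a usable value. There were 90 members in each of the HFSC and Shh-CreER tables and 85 in that of K15-CrePGR TACs. In the K15-CrePGR table, Atp5b, Atp5o, Ndufb2 and Ndufb8 occurred only in loci joined to a neighbour, and Cox4i1 and Cox4nb had no row of their own. Atp5g2, which encodes a c-ring subunit of the ATP synthase, was listed at 0 in all 4 HFSC and Shh-CreER libraries and lay between 0.0697 and 0.347 FPKM in K15-CrePGR TACs. Ndufs5, an accessory subunit of complex I, was listed at 0 in both HFSC libraries and in the Shh-CreER cKO library, against 5.76 FPKM in the Shh-CreER Het library, yet stood at 87.8 and 119 FPKM in KO and 130.3 and 141 FPKM in WT K15-CrePGR TACs. An exact 0 in such files can be a failed estimate, so no fold is given for these genes. Counts at 2-fold that take in Ndufs5 through its listed 0 name it or are given without it too. Other counts, such as those by any amount, still take it in. The isoforms Cox6a2, Cox7b2 and Cox8c and the pseudogene Atp5l2 were listed at 0 in 2 or more libraries and did not exceed 0.908 FPKM elsewhere. A comparison took in members that averaged 1 FPKM or more over its libraries, which were 82 in HFSCs, 85 in Shh-CreER TACs and 78 in K15-CrePGR TACs.

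In HFSCs, chain genes were mostly higher in the cKO library than in the Het library, by a modest amount that was similar across the complexes. Of 82 members, 73 (89.0%) were higher by any amount, against 54.2% of the 12205 genes tested, and 9 were lower, against 45.8% of all genes. The median difference on the log2(FPKM + 1) scale was 0.42 against 0.05 for all genes. At least 1.5-fold higher were 19 members (23.2%, against 13.2% of all genes), and none was at least 1.5-fold lower (11.1% of all genes). A single member, Ndufc2, was at least 2-fold higher (5.92% of all genes), and none at least 2-fold lower (4.60%). Medians were 0.33 for complex I, 0.24 for the Ndufaf factors, 0.47 for complex II, 0.48 for complex III, 0.51 for complex IV and 0.48 for complex V. Each genotype is a single HFSC library here, so there is no replicate check and no test.

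**Figure D2:**
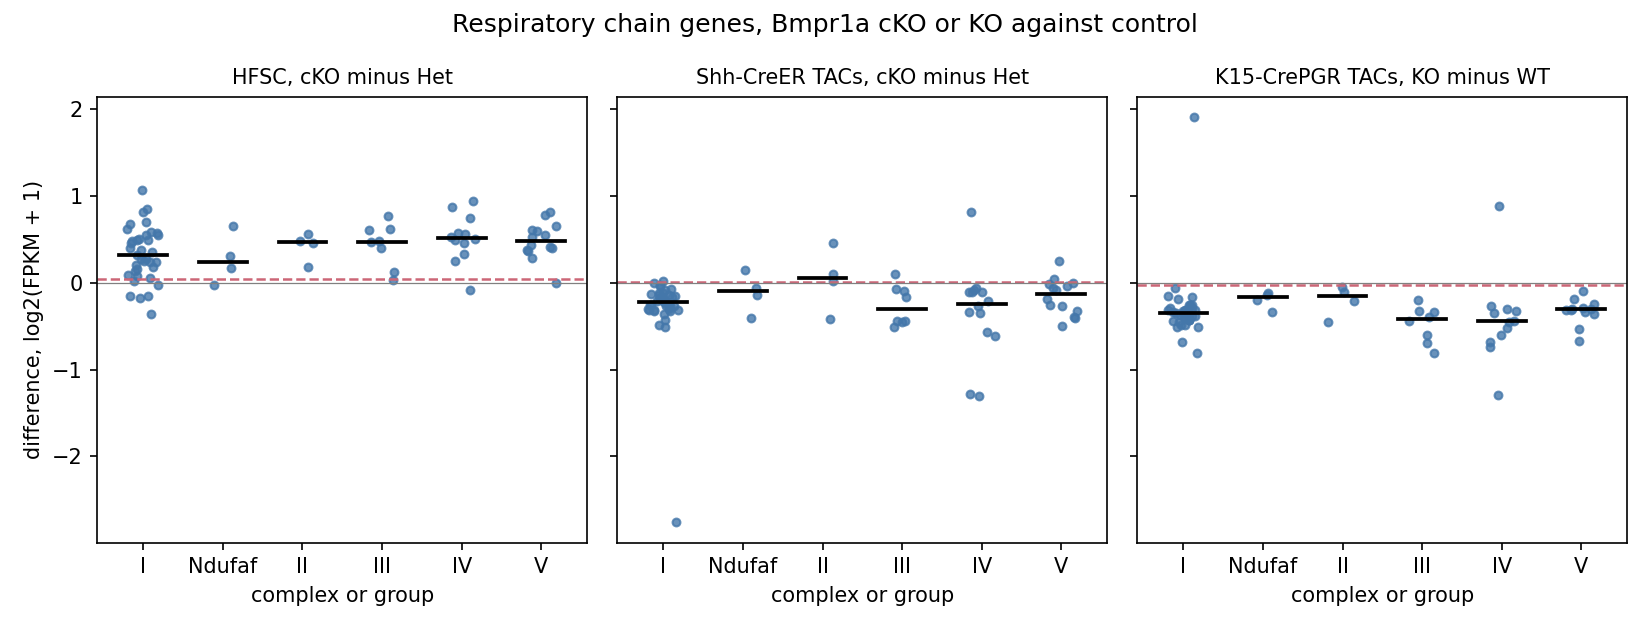
Difference of each chain gene on the log2(FPKM + 1) scale, cKO minus Het or KO minus WT, by complex and table; each point is 1 gene, each black line the median of a complex, and the red dashed line the median of all genes tested. Medians of the complexes lay between 0.24 and 0.51 in HFSCs, between -0.30 and 0.06 in Shh-CreER TACs and between -0.44 and -0.16 in K15-CrePGR TACs.

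Within complex I, 32 of 37 members were higher in cKO HFSCs. Ndufc2, an accessory subunit of the membrane arm, had 146 FPKM in cKO and 69.2 FPKM in Het HFSCs (log2 difference 1.06). Ndufv2, an iron-sulphur subunit of the module that oxidizes NADH, had 92.6 FPKM in cKO and 50.9 FPKM in Het (0.85). These were the 2 largest differences of the complex. The core subunits were uneven, with 6 of 7 higher (median 0.24) and a range from -0.15 for Ndufs7 to 0.85 for Ndufv2. Ndufv1, which binds the flavin next to Ndufv2, was level at 85.2 FPKM in cKO and 84.3 FPKM in Het. Ndufa4, the most abundant member under this prefix and a protein since assigned to complex IV, had 329 FPKM in cKO and 235 FPKM in Het (0.48). Ndufa6, an accessory subunit, ran the other way with 185 FPKM in cKO and 209.9 FPKM in Het (-0.18). Among the assembly factors, Ndufaf2 had 20.3 FPKM in cKO and 16.2 FPKM in Het (0.31), Ndufaf1 11.3 and 9.99 FPKM (0.17), Ndufaf4 5.98 and 3.44 FPKM (0.65), and Ndufaf3 14.2 and 14.5 FPKM (-0.03).

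Complexes II and III had no member lower in cKO HFSCs. The 4 subunits of succinate dehydrogenase were the flavoprotein Sdha at 63.9 FPKM in cKO and 56.3 FPKM in Het (0.18), the iron-sulphur subunit Sdhb at 143 and 97.0 FPKM (0.56), and the membrane anchors Sdhc at 128 and 92.8 FPKM (0.46) and Sdhd at 81.9 and 58.5 FPKM (0.48). Sdha thus differed least of the 4. In complex III, the small subunits Uqcrq, with 176 FPKM in cKO and 103 FPKM in Het (0.77), and Uqcr10, with 210.4 and 136 FPKM (0.62), differed most. The core protein Uqcrc1 was level at 199.9 FPKM in cKO and 195 FPKM in Het (0.04), and the hinge protein Uqcrh, the most abundant of the complex, had 528 and 380.4 FPKM (0.47).

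In complex IV, 11 of 12 members were higher in cKO HFSCs. Cox5a, a matrix-side subunit, had 169 FPKM in cKO and 87.8 FPKM in Het (0.94), and Cox6c had 422 and 230.5 FPKM (0.87). Cox4i1, the most abundant subunit, had 654 FPKM in cKO and 551 FPKM in Het (0.25). The exception was Cox7a2l, an assembly factor of respiratory supercomplexes, with 435 FPKM in cKO and 460.4 FPKM in Het (-0.08). All 14 members of complex V were higher, from Atp5d of the central stalk, which differed by 0.001 (211.3 FPKM in cKO, 211.1 FPKM in Het), to Atp5g3 of the c-ring, with 469.9 FPKM in cKO and 266 FPKM in Het (0.82). Atp5e, also of the stalk, had 555 FPKM in cKO and 323 FPKM in Het (0.78), and the catalytic subunit Atp5b, the most abundant, 638 and 483 FPKM (0.40).

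Other features differed between the same pair of HFSC libraries. All 12 proliferation genes were at least 2-fold higher in cKO (summed level 639 FPKM in cKO and 254 FPKM in Het, none at 0). Summed bulge markers were at 4935 FPKM in cKO and 10610 FPKM in Het, with 6 of 10 lower and none at 0. Of 5 melanocyte markers tested, 4 were at least 2-fold higher in cKO, and Mitf was lower (summed level of 6 markers 43.2 FPKM in cKO and 31.2 FPKM in Het, none at 0). All 6 sebocyte markers were lower (211 FPKM in cKO and 546 FPKM in Het, none at 0), as were all 5 tested immune markers (122 FPKM in cKO and 303 FPKM in Het over 6 markers, none at 0). Abundant genes as a class leaned the same way as the chain genes: of 1844 genes that averaged 50 FPKM or more, 64.1% were higher in cKO, against 64 of 70 members (91.4%). The median difference at that level was 0.17 for all genes and 0.46 for members. Xist also differed between these libraries, as given above, and Ddx3y, a gene of the Y chromosome, stood at 23.2 FPKM in cKO and 0.255 FPKM in Het. The part of these features in the difference was not tested.

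In Shh-CreER TACs the direction was the opposite and the size smaller. Of 85 members, 73 (85.9%) were lower in the cKO library than in the Het library, against 48.8% of the 12296 genes tested, with a median difference of -0.19 against 0.01 for all genes. At least 1.5-fold lower were 4 members (4.71%, against 6.86% of all genes), and 1 was at least 1.5-fold higher (1.18%, against 7.98%). Past 2-fold lower were 3 (3.53%, against 2.77%), of which Ndufs5 rests on its listed 0 and Cox8b entered only through the Het library, which leaves Cox7a1. None was at least 2-fold higher (2.67% of all genes). After quantile normalization the split became 53 of 85 lower (62.4%, against 48.4% of all genes) with a median of -0.07. This library pair has no replicate check either. Ndufs5, like Cox8b, entered only through the Het library and is also 1 of the 4 at least 1.5-fold lower.

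By complex, the medians in Shh-CreER TACs were -0.22 for complex I, -0.10 for the Ndufaf factors, 0.06 for complex II, -0.30 for complex III, -0.24 for complex IV and -0.13 for complex V. In complex I, 37 of 38 members were lower in cKO. Ndufb7, an accessory subunit facing the intermembrane space, had 144 FPKM in cKO and 204 FPKM in Het (-0.50), and Ndufa8, which lies on the same side, 142 and 198 FPKM (-0.48). Ndufv1 was level at 196 FPKM in cKO and 194 FPKM in Het (0.02). The core subunits lay nearer to 0 (median -0.08) than the complex as a whole. Ndufaf3 had 17.8 FPKM in cKO and 24.0 FPKM in Het (-0.41), and Ndufaf2 63.9 and 57.4 FPKM (0.15).

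Complex II was split. Sdhb had 211.5 FPKM in cKO and 283 FPKM in Het Shh-CreER TACs (-0.42), while Sdha had 137 and 99.3 FPKM (0.46), Sdhd 137 and 127 FPKM (0.11), and Sdhc 159 and 158 FPKM (0.02). The catalytic partners Sdha and Sdhb thus stood on opposite sides. In complex III, Uqcr10 had 202 FPKM in cKO and 287 FPKM in Het (-0.51), and Uqcr11 41.5 and 57.3 FPKM (-0.46). Uqcrc1 was the exception at 333 FPKM in cKO and 311 FPKM in Het (0.10).

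For complex IV, Cox7c had 86.7 FPKM in cKO and 133 FPKM in Het Shh-CreER TACs (-0.61), and Cox7a2, the widely expressed partner of the muscle isoform Cox7a1, 192 and 285 FPKM (-0.57). Cox4i1 had 837 FPKM in cKO and 898 FPKM in Het (-0.10). In complex V, Atp5k, a small membrane subunit, had 46.0 FPKM in cKO and 65.1 FPKM in Het (-0.49), Atp5e 723 and 959 FPKM (-0.41), and Atp5b 1330.2 and 1406 FPKM (-0.08). The c-ring gene Atp5g1 was higher, with 152 FPKM in cKO and 127 FPKM in Het (0.26). Marker levels also differed between these libraries: 7 of 10 hair matrix markers were lower in cKO (summed level 1014 FPKM in cKO and 5503 FPKM in Het, none at 0), and all 6 sebocyte markers were higher (939 FPKM in cKO and 652 FPKM in Het, none at 0). Of 12 proliferation genes, 8 were higher in cKO and 4 lower (median 0.10, summed level 1201 FPKM in cKO and 1076 FPKM in Het, none at 0). Of 2193 genes that averaged 50 FPKM or more, 68.1% were lower in cKO, against 59 of 67 members (88.1%), with medians of -0.12 and -0.20. The part of these in the difference was not tested.

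In K15-CrePGR TACs, the table with 2 libraries per genotype, nearly all chain genes had lower means in KO than in WT. This held for 75 of 78 members (96.2%), against 52.7% of the 13565 loci tested, and for 3 (3.85%) the mean was higher, against 47.3%. The median difference was -0.33 against -0.03 for all loci. A single member, Cox7a1, was at least 2-fold lower (1.28%, against 2.55%). Both KO libraries lay below both WT libraries in 50 members (64.1%, against 27.5% of all loci), and both lay above in 2 (2.56%, against 26.8%). No single member passed limma's adjusted threshold of 0.05, and the smallest limma adjusted p of a member was 0.118 for Cox7a1. The threshold was passed by 9 of the 13565 loci (0.0663%), among them the mitochondrial mt-Co1, which was listed at 0 in both WT libraries. At an unadjusted limma p under 0.05 there were 14 members (17.9%, against 17.4% of all loci), of which 13 were lower in KO (16.7%, against 7.08%) and 1 was higher (1.28%, against 10.3%). With 1 library left out, the median of members was -0.53 without KO 84 and -0.19 without KO 64 (all loci -0.055 and 0.009). It was -0.38 without WT 52 and -0.34 without WT 57 (all loci -0.032 and -0.006). The labels do not say that the samples are separate animals, so the p-values rest on the spread among 4 samples that may be technical.

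The 2 KO libraries differed from each other. In KO 64, 75 of 78 members lay below the WT mean (54.8% of all loci), with a median difference of -0.53. In KO 84 it was 61 of 78 (48.8% of all loci), with a median of -0.19, so KO 64 lay farther from WT in FPKM. The FPKM total of named genes was also lowest in KO 64, at 791913, against 966298 in KO 84, 996545 in WT 52 and 973693 in WT 57. As a share of that total, members made up 1.801% in KO 64 and 1.869% in KO 84, against 2.138% and 2.219% in WT. By share the 2 KO libraries were thus close to each other, and both lay below WT. Summed fibroblast markers were at 1472 FPKM in KO 64 and 455 FPKM in KO 84, against 402 and 425 FPKM in WT 52 and WT 57 (6 of 6 had higher means in KO). Summed immune markers were at 278 FPKM in KO 64 and 52.4 FPKM in KO 84, against 26.5 and 10 FPKM in WT (3 of 3 tested had higher means in KO), and 1 of 5 was listed at 0 in KO 84 and in each WT library. Melanocyte markers were at 121 and 39.6 FPKM in KO, against 27.7 and 25.5 FPKM in WT (6 of 6 had higher means in KO). These markers of other cells were highest in KO 64, in which the FPKM of the chain genes and the total of named genes were lowest. Of 6 fibroblast markers, 5 lay higher in both KO libraries than in both WT libraries. The part of the markers of other cells and of the total in the difference of the chain genes was not tested. Bulge markers had higher means in KO (8 of 8 tested, 614 and 676 FPKM in KO against 142 and 191 FPKM in WT, with 1 of 10 at 0 in WT 57), and 7 of 9 hair matrix markers lower ones (1226 and 1040.2 FPKM in KO against 3184 and 2601 FPKM in WT). Of 11 proliferation genes tested, 9 had lower means in KO and 2 higher ones (median -0.26, summed level 828 and 819 FPKM in KO against 878 and 1142 FPKM in WT, none at 0). Of 2550 loci that averaged 50 FPKM or more, 75.8% had a lower mean in KO, against all 64 members at that level. The median difference at that level was -0.23 for all loci and -0.35 for members, a smaller gap than over all loci tested.

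**Figure D3:**
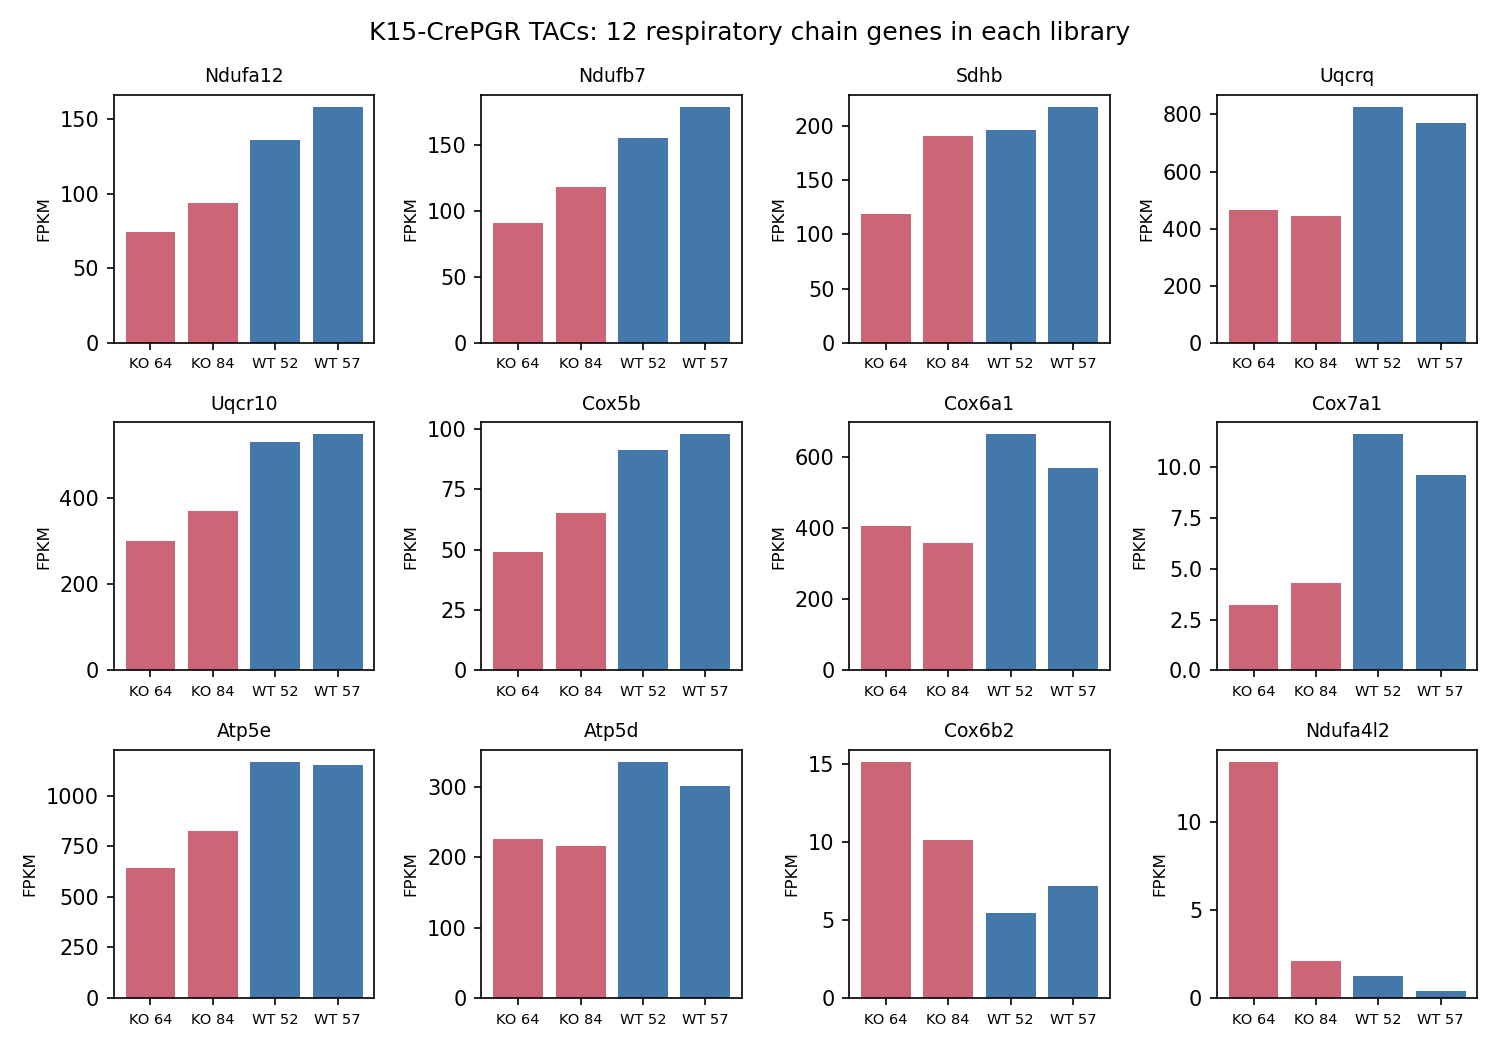
FPKM of 12 chain genes in each K15-CrePGR TAC library, with KO 64 and KO 84 in red and WT 52 and WT 57 in blue; each bar is 1 library, and the axes start at 0 and differ between panels. The first 10 genes had both KO bars below both WT bars, and Cox6b2 and Ndufa4l2 had both KO bars above.

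Medians by complex were -0.34 for complex I, -0.17 for the Ndufaf factors, -0.16 for complex II, -0.41 for complex III, -0.44 for complex IV and -0.31 for complex V. In complex I, 35 of 36 members had lower means in KO. Ndufa12 (mm9 chromosome 10, 93661699 to 93684188), an accessory subunit that is placed late in assembly, had 74.5 and 93.8 FPKM in KO 64 and KO 84, against 136 and 158 FPKM in WT 52 and WT 57. Both KO libraries were below both WT libraries, with a log2 difference of -0.81 (SE 0.19, limma adjusted p = 0.186). Ndufb7 had 91.1 and 119 FPKM in KO, against 156 and 179 FPKM in WT (-0.68). Its groups did not overlap, and it was also the lowest of the complex I differences above 5 FPKM in Shh-CreER TACs. Ndufa4 had 347 and 496 FPKM in KO, against 550.0 and 616 FPKM in WT (-0.49), again without overlap.

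The assembly factors and complex II had the smallest medians. Ndufaf4 had 23.5 and 23.4 FPKM in KO, against 30.0 and 29.7 FPKM in WT (-0.34), and its groups did not overlap. Ndufaf2 had 36.0 and 48.0 FPKM in KO, against 37.1 and 54.9 FPKM in WT, and Ndufaf1 17.8 and 17.5 FPKM in KO, against 23.5 and 17.6 FPKM in WT; differences of -0.12 and -0.20 changed sign when a library was left out. Sdhb had 119 and 191 FPKM in KO, against 197 and 218 FPKM in WT (-0.45, SE 0.28), without overlap but with a wide gap between the KO libraries. Sdha had 329 and 407 FPKM in KO, against 369 and 390.0 FPKM in WT (-0.05), and Sdhc 217 and 274 FPKM in KO, against 254 and 269 FPKM in WT (-0.10). Both overlapped between genotypes. Sdhd had 101 and 96.7 FPKM in KO, against 113 and 115 FPKM in WT (-0.21), without overlap.

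In complex III all 8 members had lower means in KO. Uqcrq (chromosome 11, 53241423 to 53244333) had 464 and 446 FPKM in KO, against 827 and 769 FPKM in WT, a difference of -0.81 (SE 0.18, limma adjusted p = 0.172). The spread within each genotype was small beside the gap. Uqcr10 had 300.3 and 372 FPKM in KO, against 530.2 and 549 FPKM in WT (-0.69, SE 0.20, limma adjusted p = 0.225), and Uqcr11 had 154 and 209 FPKM in KO, against 261 and 283 FPKM in WT (-0.60). In both the KO libraries were below the WT libraries.

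In complex IV, 11 of 12 members had lower means in KO. Cox5b (chromosome 1, 36748331 to 36750230), a zinc-binding subunit, had 48.9 and 65.1 FPKM in KO, against 91.3 and 97.8 FPKM in WT (-0.73, SE 0.20, limma adjusted p = 0.208). Cox6a1 had 407 and 358 FPKM in KO, against 664 and 570.2 FPKM in WT (-0.69). The most abundant member of the table, Cox7b, had 1419 and 1960.2 FPKM in KO, against 2663 and 2386 FPKM in WT (-0.60). In each of the 3 genes both KO libraries lay below both WT libraries. In complex V all 12 members had lower means in KO. Atp5e had 642 and 825 FPKM in KO, against 1168 and 1152 FPKM in WT (-0.67, SE 0.23, limma adjusted p = 0.264), and Atp5d 226 and 216 FPKM in KO, against 336 and 302 FPKM in WT (-0.53). The 4 members seen only in joined loci also had lower means in KO: the locus with Ndufb2 had 179 and 205 FPKM in KO, against 303 and 273 FPKM in WT (-0.58), and those with Ndufb8, Atp5o and Atp5b differed by -0.41, -0.41 and -0.30.

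Most members had one direction in HFSCs and the other in both TAC tables. Of 76 members tested in all 3, 58 (76.3%) were higher in cKO HFSCs and lower in both deleted TAC groups, against 20.3% of the 10007 genes tested in all 3 tables, and none showed the opposite pattern (15.4% of all genes). The members lower in all 3 numbered 6 (7.89%, against 12.8%), and those higher in all 3 were Atp5s and Cox6b2 (2.63%, against 16.7%). The tables share no library. How far a member was higher in HFSCs said little of how far it was lower in TACs: across generally expressed members, Pearson's r between the HFSC and the Shh-CreER difference was -0.05 (n = 77 genes, Spearman's rho -0.04), and between the HFSC and the K15-CrePGR difference -0.19 (n = 72, rho -0.19). Between the 2 TAC tables it was 0.28 (n = 73, rho 0.47). These describe genes that share libraries within each table and are not independent replicates.

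Short transcripts lay lower in both TAC comparisons. Among generally expressed members, the difference went with log2 transcript length at r = 0.38 (rho 0.51, n = 78) in Shh-CreER TACs and r = 0.31 (rho 0.30, n = 73) in K15-CrePGR TACs, while over all genes r was 0.21 (rho 0.32) and 0.17 (rho 0.22). In HFSCs it was -0.13 (rho -0.18, n = 77). Restricted to members of at least 600 bases, 51 of 56 were higher in cKO HFSCs (54.0% of all genes of that length), 48 of 56 were lower in cKO Shh-CreER TACs (48.3%), and 52 of 52 had lower means in KO K15-CrePGR TACs (49.7%). Medians in these longer members were 0.41, -0.15 and -0.33. The part of length in the difference of the shorter members was not tested.

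Some isoforms that are restricted to certain tissues departed from the general pattern, Cox7a1 in size, and Cox6b2 and Ndufa4l2 in direction in some tables. Cox7a1 (chromosome 7, 30969189 to 30971047), the heart and skeletal muscle form of a complex IV subunit, had 3.22 and 4.32 FPKM in KO 64 and KO 84, against 11.6 and 9.63 FPKM in WT 52 and WT 57. The groups were well apart, with a difference of -1.29 (SE 0.21, limma adjusted p = 0.118), which did not pass the threshold. In Shh-CreER TACs it had 2.19 FPKM in cKO and 6.88 FPKM in Het (-1.31), and in HFSCs 0.661 FPKM in cKO and 0.873 FPKM in Het. The muscle forms Cox8b and Cox6a2 were low throughout: in Shh-CreER TACs Cox8b had 0.201 FPKM in cKO and 1.91 FPKM in Het, and Cox6a2 0.0604 and 0.908 FPKM.

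Muscle transcripts moved with these isoforms in the Shh-CreER table. Of 12 skeletal muscle markers, all 9 tested were lower in cKO (median -2.23), the summed level was 38.2 FPKM in cKO and 188 FPKM in Het, and Myh2 was listed at 0 in cKO. In the K15-CrePGR table, summed muscle markers were at 44.2 and 36.3 FPKM in KO, against 53.0 and 33.5 FPKM in WT, so the genotypes overlapped there while Cox7a1 did not. The part of muscle RNA in the Shh-CreER difference was not tested.

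**Figure D4:**
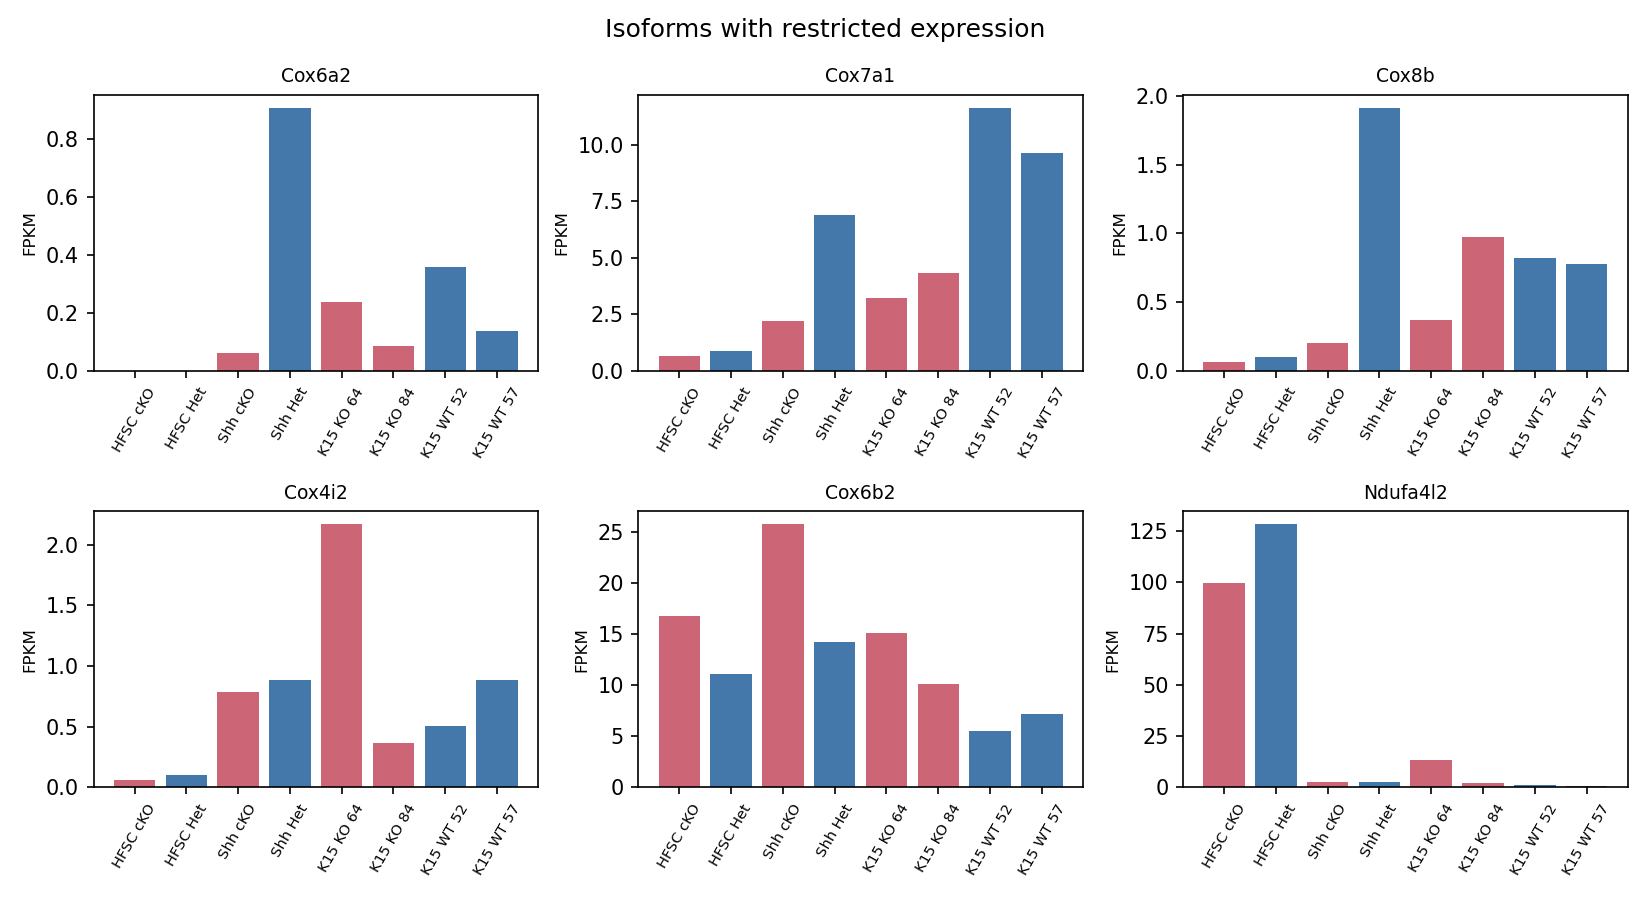
FPKM of 6 isoforms with restricted expression in each of the 8 libraries (cKO and KO in red, Het and WT in blue); each bar is 1 library and axes differ between panels. Cox7a1 was below its controls in each cKO or KO TAC library, Cox6b2 above its controls in all 3 tables, and Ndufa4l2 was far higher in the HFSC libraries than in the 6 TAC libraries.

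Cox6b2, known as the testis form of a complex IV subunit, was higher in the deleted genotype of every table. It had 16.8 FPKM in cKO and 11.1 FPKM in Het HFSCs (0.56), 25.8 FPKM in cKO and 14.2 FPKM in Het Shh-CreER TACs (0.81), and 15.1 and 10.1 FPKM in KO against 5.47 and 7.20 FPKM in WT K15-CrePGR TACs (0.88, SE 0.26, limma adjusted p = 0.232). Its ubiquitous partner Cox6b1 had 475 FPKM in cKO and 318 FPKM in Het HFSCs, 542 FPKM in cKO and 684 FPKM in Het Shh-CreER TACs, and 366 and 462 FPKM in KO against 553 and 560 FPKM in WT K15-CrePGR TACs. The 2 forms therefore lay on opposite sides in both TAC tables, at very different levels.

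Ndufa4l2, a paralog of Ndufa4 known as a target of hypoxia-inducible factor, was a bulge gene in these data. It had 99.9 FPKM in cKO and 128 FPKM in Het HFSCs (-0.36), against 2.31 and 2.50 FPKM in cKO and Het Shh-CreER TACs. In K15-CrePGR TACs it had 13.4 FPKM in KO 64 and 2.09 FPKM in KO 84, against 1.23 and 0.409 FPKM in WT (1.91, SE 0.82, limma adjusted p = 0.323). It passed the filter there only through the KO libraries, and KO 64 decided the size: without it the difference was 0.80. Cox4i2, a lung and hypoxia form, reached 2.17 FPKM in KO 64 and stayed under 1 FPKM in the other 7 libraries.

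The median difference between control stem cells and control TACs was larger than that between genotypes in any table. The tables were normalized separately and each control is 1 library, so this is a description. On the log2(FPKM + 1) scale, Het HFSCs minus Het Shh-CreER TACs, 64 of 85 members (75.3%) were lower in HFSCs against 60.7% of 12625 genes, and the median was -0.79 against -0.31 for all genes. At least 1.5-fold lower in HFSCs were 54 members (63.5%, against 39.7%), and at least 1.5-fold higher 10 (11.8%, against 24.6%). At least 2-fold lower in HFSCs were 36 members (42.4%, against 26.4% of all genes), and at least 2-fold higher 10 (11.8%, against 18.2%). Without Ndufs5, listed at 0 in HFSCs, those 2-fold lower were 35. Scaling the libraries to equal medians moved the median of all genes to -0.10 and that of members to -0.58. Medians by complex were -1.03 for complex I, -1.38 for the Ndufaf factors, -0.96 for complex II, -0.87 for complex III, -0.50 for complex IV and 0.02 for complex V. Between the deleted libraries of the same tables, 52 of 83 members (62.7%, against 62.3% of all genes) were lower in cKO HFSCs than in cKO Shh-CreER TACs. The median was -0.38 against -0.32, so the lean was close to that of all genes. Large differences were fewer than among all genes. At least 2-fold lower were 9 members (10.8%, against 21.4%), and at least 2-fold higher 11 (13.3%, against 16.1%).

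Markers of other cells and of division also differed between the Het libraries. All 6 fibroblast markers (summed level 8.31 FPKM in HFSCs and 803 FPKM in TACs, none at 0 in either) and all 9 tested skeletal muscle markers (4.97 FPKM in HFSCs, with 2 of 12 at 0, and 188 FPKM in TACs, with none at 0) were at least 2-fold lower in HFSCs. Of 12 proliferation genes, 11 were at least 2-fold lower (254 FPKM in HFSCs and 1076 FPKM in TACs, none at 0). Their part in the difference of the chain genes was not tested.

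**Figure D5:**
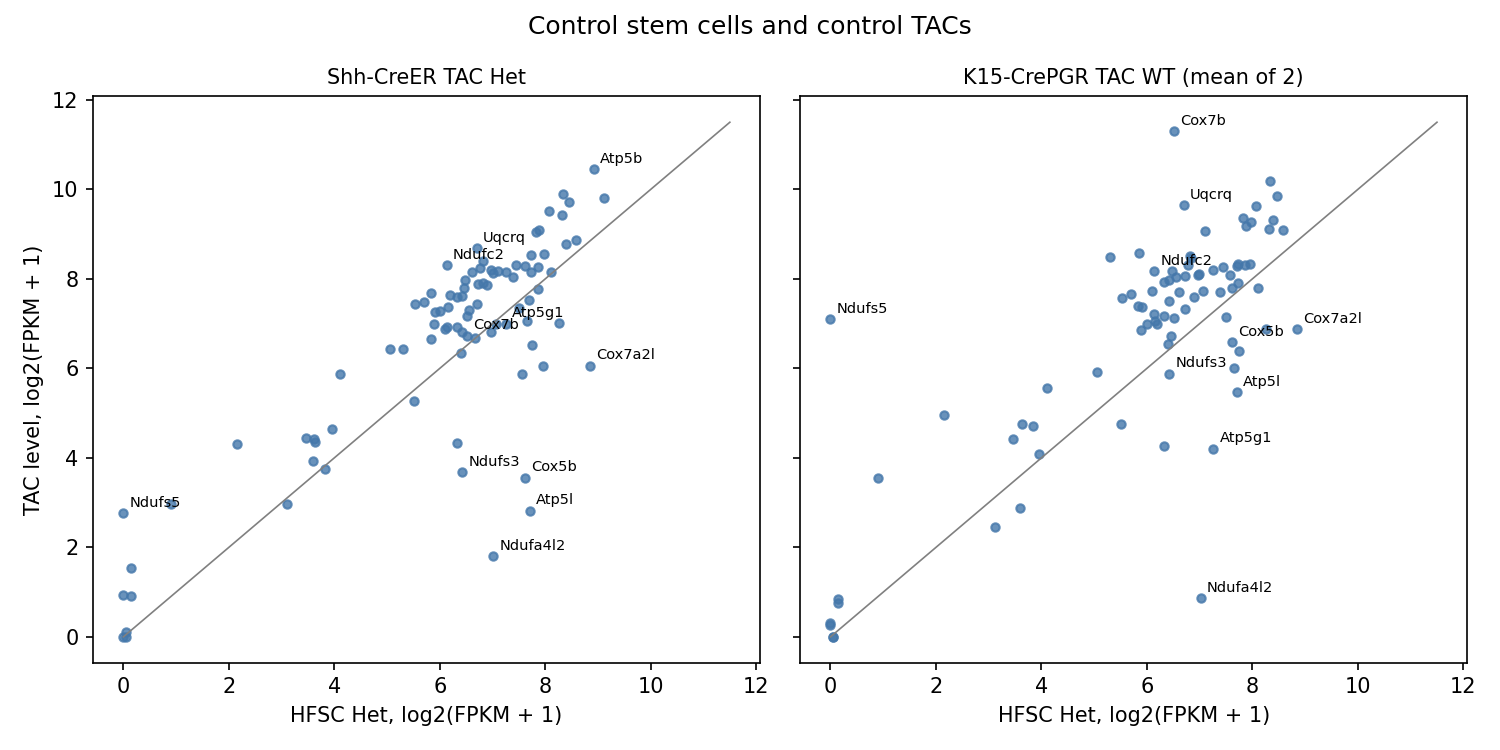
Level of each chain gene in Het HFSCs (horizontal) against control TACs (vertical), both as log2(FPKM + 1), with Het Shh-CreER TACs on the left and the mean of the 2 WT K15-CrePGR TAC libraries on the right; each point is 1 gene and the line marks equal levels. Most genes lie above the line, while Ndufa4l2, Atp5l and Cox7a2l lie below it in both panels.

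Among members lower in stem cells, Ndufc2 had 69.2 FPKM in Het HFSCs and 316 FPKM in Het Shh-CreER TACs (-2.17), and Ndufs8, a core iron-sulphur subunit, 45.3 and 172 FPKM (-1.91). Ndufaf4 had 3.44 FPKM in HFSCs and 18.7 FPKM in TACs (-2.15). The core subunit Ndufs3 ran the other way, at 84.9 FPKM in HFSCs and 11.8 FPKM in TACs (2.75). Sdhb had 97.0 and 283 FPKM (-1.53), Uqcrq 103 and 412 FPKM (-1.99), Cox5a 87.8 and 249 FPKM (-1.49), and Atp5b 483 and 1406 FPKM (-1.54). Each complex thus had members at well under the TAC level.

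Against WT K15-CrePGR TACs, scaled to the genes that the tables share, 41 of 78 members (52.6%, against 28.6% of all genes) were at least 2-fold lower in HFSCs, with a median of -1.06 against -0.33. Without Ndufs5 the count was 40. With the libraries scaled to equal medians the count was 29 (37.2%, against 21.7%), or 28 without Ndufs5, and the median -0.78 against -0.04. Of 78 members comparable with both kinds of TACs, 29 were at least 2-fold lower in HFSCs than in either (37.2%, against 19.4% of 11036 genes), or 28 without Ndufs5. The 6 at least 2-fold higher in HFSCs against both (7.69%, against 15.4%) were Atp5h, Atp5l, Cox7a2l, Ndufa4l2, Ndufb4 and Uqcrb. For Cox7a2l the levels were 460.4 FPKM in Het HFSCs, 65.7 FPKM in Het Shh-CreER TACs, and 123 and 109.5 FPKM in WT K15-CrePGR TACs. For Uqcrb they were 215 FPKM, 90.9 FPKM, and 76.3 and 89.8 FPKM.

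Levels of several members depended on the table as much as on the cell. Cox5b had 194 FPKM in Het HFSCs and 10.8 FPKM in Het Shh-CreER TACs, but 91.3 and 97.8 FPKM in WT K15-CrePGR TACs. Atp5l had 208 FPKM in Het HFSCs and 6.05 FPKM in Het Shh-CreER TACs, but 47.9 and 38.7 FPKM in WT K15-CrePGR TACs. Cox7b had 105 FPKM in Het Shh-CreER TACs and 2663 and 2386 FPKM in WT K15-CrePGR TACs, while Atp5g1 had 127 FPKM in Het Shh-CreER TACs and 17.6 and 17.4 FPKM in WT K15-CrePGR TACs. Many chain genes have processed pseudogenes, between which reads can be split, and no source used here says how the authors treated such reads. Levels of such genes across tables are therefore uncertain. Atp5k and Uqcr11 were higher in Het HFSCs than in Het Shh-CreER TACs (1.91 and 1.70) and lower than in scaled WT K15-CrePGR TACs (-0.50 and -0.65).

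Genes that work with the chain but fall outside the symbols had smaller median differences in each table. Of 7 tested chain genes outside the symbols, such as Cyc1, the cytochrome c1 subunit of complex III, the median was 0.34 in HFSCs, -0.11 in Shh-CreER TACs and -0.14 in K15-CrePGR TACs. Cyc1 had 263 FPKM in cKO and 289 FPKM in Het Shh-CreER TACs. In K15-CrePGR TACs it had 188 and 185 FPKM in KO, against 263 and 249.9 FPKM in WT. Medians of the assembly factors outside the symbols were 0.27, -0.10 and -0.13 (21, 21 and 19 tested), and those of regulators of mitochondrial biogenesis 0.17, -0.02 and -0.16 (14, 14 and 13 tested). The regulator Esrra, an oestrogen-related receptor, had 13.5 FPKM in cKO and 23.5 FPKM in Het HFSCs (-0.76), opposite to the chain genes. Nrf1 had 15.7 and 13.9 FPKM in cKO and Het HFSCs, 36.6 and 33.4 FPKM in cKO and Het Shh-CreER TACs, and 31.0 and 38.7 FPKM in KO against 29.6 and 36.4 FPKM in WT K15-CrePGR TACs. No gene of these 3 lists passed limma's adjusted threshold in K15-CrePGR TACs (0.0663% of all loci did). At an unadjusted limma p under 0.05 there were 2 of 7, 3 of 19 and 2 of 13, against 17.4% of all loci.

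Upstream metabolism was partly alike. Of 18 genes of the TCA cycle and pyruvate dehydrogenase, 16 were higher in cKO HFSCs (median 0.29), 9 were lower in cKO Shh-CreER TACs (median 0.00), and 15 had lower means in KO K15-CrePGR TACs (median -0.26). Of 15 glycolytic genes, 12 were higher in cKO HFSCs (median 0.32) and 12 in cKO Shh-CreER TACs (median 0.39), and 9 of 14 had lower means in KO K15-CrePGR TACs (median -0.23). Between Het HFSCs and Het Shh-CreER TACs the glycolytic genes had a median of 1.98, on the other side from the chain genes at -0.79. That median takes in genes with processed pseudogenes, such as Gapdh, whose levels across tables are uncertain for the same reason as above.

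Mitochondrial ribosomal proteins (symbols Mrpl and Mrps), a list added after values were seen, had the same lean as the chain genes: 68 of 76 were higher in cKO HFSCs (median 0.28), 69 of 76 were lower in cKO Shh-CreER TACs (median -0.21), and 70 of 70 had lower means in KO K15-CrePGR TACs (median -0.40). Cytosolic ribosomal proteins (Rpl and Rps), added likewise, had medians of 0.16, -0.31 and -0.48. The direction between genotypes was therefore shared with both ribosomal groups, less evenly for the cytosolic ones in HFSCs (53 of 77 higher in cKO, 24 lower). Between Het HFSCs and Het Shh-CreER TACs the groups parted. The cytosolic ribosomal proteins had a median of 1.35, on the other side from the chain genes at -0.79 and the mitochondrial ribosomal proteins at -1.21. Single cytosolic ribosomal genes ranged from -3.57 to 6.54 between these separately normalized tables. Their levels across tables are therefore uncertain too, and the contrast is a description.

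Transcripts encoded by mitochondrial DNA, which supply the other subunits, were listed in the K15-CrePGR table only. Cytochrome b (mt-Cytb) had 6219 and 5449 FPKM in KO 64 and KO 84, against 7540.0 and 6430.2 FPKM in WT 52 and WT 57 (-0.26, limma adjusted p = 0.688). The complex I subunit mt-Nd5 had 1027 and 946 FPKM in KO, against 1493 and 1175 FPKM in WT (-0.43, limma adjusted p = 0.409). In both, and in mt-Nd6 (1205 and 1268 FPKM in KO, against 1920 and 1639 FPKM in WT, -0.52), the KO libraries were below the WT libraries. In the joined loci with mt-Nd1, mt-Nd2 and mt-Nd4 the genotypes overlapped, with differences of -0.31, -0.11 and -0.06. The locus with mt-Atp6, mt-Atp8 and mt-Co3 had 2.19 and 3.17 FPKM in KO and was listed at 0 in both WT libraries, and mt-Co2 and mt-Nd3 stayed under 4 FPKM.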

How the data were processed

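RNA was sequenced in 8 libraries. TopHat, Cufflinks and the mm9 build appear in the submitters' processing notes; no source used here gives their versions, the depth or the treatment of multiply mapping reads. The authors deposited FPKM, with 1 column per library, in 3 tables that were normalized separately. In the K15-CrePGR table, 8904 of 45930 loci were unnamed and were left out; their share of the FPKM total was 78.4% to 79.0%. From steps of the values under 0.3 FPKM, the cKO library had 0.854 times the depth of Het in HFSCs and 1.003 times in Shh-CreER TACs, and against WT 52 the depth was 1.078 (KO 64), 0.911 (KO 84) and 1.135 (WT 57) times; no count model was fitted.

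Differences are of log2(FPKM + 1), which understates the change of low genes, over symbols that averaged 1 FPKM or more. The K15-CrePGR table was fitted whole with limma 3.58.1 in R 4.3.3 (two-sided moderated test with intensity trend, Benjamini-Hochberg over 13565 loci, threshold 0.05). Tested on simulated data of that comparison, its calls took in 1 of the 67 genes given a 2-fold change, 28 of the 67 given 4-fold, 42 of the 66 given 8-fold, and 4 unchanged genes. The other tables hold 1 library per genotype and were not tested. Transcript lengths came from GENCODE vM21 through RefSeq IDs (90 of 91 symbols) and promoters from RefSeq. Named were, per comparison and complex, the 2 largest differences each way among members averaging 5 FPKM or more, and the highest control level, all of Sdha to Sdhd, the restricted isoforms and members listed at 0; others named were chosen after their values were seen. The members and lists were chosen with earlier results of these data known. Alternatives were pseudocounts of 0.1 and 5, filters at 5 FPKM, at 50 FPKM (added after seeing the data) and none, median scaling, quantile normalization, summed rows, no trend, only members of at least 600 bases, and each K15-CrePGR library left out. Tables were made in Python 3.11.15 (pandas 2.3.3, numpy 2.4.6, scipy 1.17.1), and figures with matplotlib 3.10.9.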

Additional observations from a re-analysis of the deposited data

Results flagged for a closer look

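Median differences of the chain genes had one sign in HFSCs and the other in the TAC tables, and the difference between tables was not tested. For all members the medians were 0.42 in HFSCs, -0.19 in Shh-CreER TACs and -0.33 in K15-CrePGR TACs. For complex I they were 0.33, -0.22 and -0.34, for the Ndufaf factors 0.24, -0.10 and -0.17, for complex III 0.48, -0.30 and -0.41, for complex IV 0.51, -0.24 and -0.44, and for complex V 0.48, -0.13 and -0.31, in the same order of tables. HFSCs share the Cre driver but not the age with K15-CrePGR TACs and the age but not the driver with Shh-CreER TACs, and the tables were normalized separately. The part of these in the sign was not tested.

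The mitochondrial gene mt-Co1, a complex IV subunit outside the members, had 5946.39 FPKM in KO 64 and 5270.69 FPKM in KO 84 and was listed at 0 in both WT libraries. It was among the 9 loci past limma's adjusted threshold (limma adjusted p = 0.000504), a call that rests on those listed 0 values. Genes of the same genome, such as mt-Cytb, were abundant in all 4 libraries. Since a listed 0 can be a failed estimate, no fold is given.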

How the results depend on the processing

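The number of chain genes in the prevailing direction of each genotype comparison stayed within 1.5 times of the reported one under every alternative run, and no member was called by limma under any of them. The minority moved more: members higher in KO K15-CrePGR TACs went to 17 without KO 64 and 10 under quantile normalization, against 3 reported, and under quantile normalization members higher in cKO Shh-CreER TACs went to 32 (12 reported) and members lower in cKO HFSCs to 16 (9 reported). Members lower in KO K15-CrePGR TACs ranged from 61 (without KO 64) to 77 under the settings that kept shorter members. Of the generally expressed members of at least 600 bases, 52 of 52 were lower there. Members higher in cKO HFSCs ranged from 52 (of at least 600 bases) to 74, and members lower in cKO Shh-CreER TACs from 49 to 76. Also beyond 1.5 times was the number at least 2-fold lower in HFSCs than in TACs, which was 36 between the Het libraries and 9 between the cKO libraries; the cause was not tested. Quantile normalization moved the K15-CrePGR median to -0.16, against -0.08 for all loci, a gap of -0.075 where -0.31 was reported, and turned Sdha to 0.23 and Sdhc to 0.15. Leaving out 1 K15-CrePGR library gave medians from -0.53 (without KO 84) to -0.19 (without KO 64). It turned Ndufaf2 (range -0.39 to 0.16, positive without WT 57 and, at 0.085, without KO 64), Sdha (-0.21 to 0.10) and Sdhc (-0.27 to 0.066) without KO 64, and Ndufaf1 (-0.39 to 0.000822) without WT 52. Against K15-CrePGR rather than Shh-CreER TACs, Atp5k and Uqcr11 turned to -0.50 and -0.65, or -0.21 and -0.36 with median scaling, which was added after seeing the data. No paired analysis was possible because the genotypes share no replicate numbers. Depth is known only in ratio, single libraries carry no error, and members at or near 0 cannot be compared.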
